A study of Mus musculus with 9 samples.

Results

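A set of 8 acute-phase and innate defence genes was followed in RSC96 cells, a rat Schwann cell line: C3, Lcn2, Slpi, S100a8, Cd14, Sod2, Nfkbiz and Tnip3. They were chosen by symbol, with earlier results of these data known, and are 8 of the 819 genes that stand in at least 1 of the 3 deposited tables. The 9 RNA-seq libraries form 3 groups of 3. SCs are the control cells, M-SCs were given conditioned medium (CM) of stem cells from menstrual blood (MenSCs), and E-SCs were given exosomes (Exos) of those stem cells. The sample titles describe the SCs as cultured with control MenSCs, whereas the series' design text calls them control SCs, so SCs cannot be taken as untreated cells. All 3 groups are the same cell line, and the labels used here give no dose or time of treatment. The labels name the mouse as organism and mm10 among the builds, but all 819 identifiers are rat Ensembl identifiers, so the genes are given here as rat genes without coordinates or sequences.

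The acute-phase response is the set of secreted and cellular defence proteins that tissues make when cytokines or microbial products are sensed. Much of it is driven by the transcription factors NF-kB and C/EBP, and several products act back on the same signalling route. Liver and epithelium are the best known sources, and glial cells, Schwann cells among them, can make such proteins after nerve injury. Among the genes followed here, C3, Lcn2, Slpi and S100a8 encode secreted effectors, Cd14 a receptor, Sod2 a mitochondrial enzyme, and Nfkbiz and Tnip3 regulators of NF-kB signalling.

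All 8 genes were listed by the authors for E-SCs against M-SCs, 7 for M-SCs against SCs (all except S100a8), and none for E-SCs against SCs. Every listed member was higher in M-SCs than in the group it was set against. It follows that 7 of the 8 have values in all 9 libraries, and S100a8 has values in E-SCs and M-SCs only; its level in SCs was not analysed here. Each table is restricted to genes with a difference of 2-fold or more in the authors' own selection. Every listed gene also had an authors' p under 0.05, from a test that was not named. The direction and size of these differences therefore describe the members and are not tests of them. A gene that is not listed may have missed either limit. In these bulk libraries, fewer cells that express a gene and less of its RNA per cell cannot be told apart.

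Values below are scaled counts, the authors' library-scaled read counts, in the order of libraries 1, 2 and 3 of a group. Reads are the whole reads behind them. Library totals are unknown, because only selected genes were analysed; relative depth ran from 0.868 to 1.16 times that of E-SCs library 1. Intervals on ratios of reads are exact, at 95%, and reflect counting error alone, as copies made by PCR are counted again. Since the labels name no separate cultures, the spread within a group may be technical.

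C3 is the central component of the complement cascade, whose cleavage marks targets for uptake and lysis. It was almost undetected outside M-SCs, with 0, 0 and 2 reads over the SCs libraries and 0, 2 and 0 over those of E-SCs. In M-SCs it had 184, 145 and 224 reads, or scaled counts of 171, 162 and 193. The 3 M-SCs libraries lay close together and far above the other 6. The ratio of reads per depth was 251 for M-SCs over E-SCs (95% interval 69.0 to 2074). With 2 reads in each group, a difference between E-SCs and SCs was not detectable at this depth (ratio 1.10, interval 0.0795 to 15.1).

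Lcn2 encodes lipocalin 2, which binds bacterial siderophores and so withholds iron. Its scaled counts were 14.2, 7.61 and 20.3 for SCs, 17.0, 18.6 and 35.7 for E-SCs and 62.4, 69.2 and 61.1 for M-SCs. The lowest M-SCs library stood above all others, while SCs and E-SCs overlapped. The E-SCs mean was 1.69 times that of SCs (23.8 ± 10.4 against 14.1 ± 6.36, SD, n = 3), with a ratio of reads per depth of 1.68 (interval 1.13 to 2.53). The smallest member difference between E-SCs and M-SCs was also that of Lcn2, at -1.47 on the log2 scale (SE 0.33). Its log2 difference for M-SCs against SCs was 2.21 (SE 0.38).

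Slpi encodes a secreted inhibitor of neutrophil elastase and related proteases. The SCs libraries gave 2, 11 and 0 reads and the E-SCs libraries 8, 8 and 0. In M-SCs it had 112, 72 and 72 reads, with scaled counts of 104, 80.4 and 62.0. Within SCs and within E-SCs the libraries ranged from absence to about 10 scaled counts, and none came near the lowest of M-SCs. The mean in M-SCs was 82.2 ± 21.3 (SD, n = 3), and the ratio of reads per depth was 19.6 over SCs (interval 11.2 to 37.3) and 14.5 over E-SCs (8.76 to 25.8).

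S100a8 encodes a calcium-binding protein that, paired with S100a9, is released by phagocytes and binds zinc. The E-SCs libraries gave scaled counts of 3, 14.4 and 0, and the M-SCs libraries 30.8, 34.6 and 18.9. The groups did not overlap, but E-SCs library 2, with 14 of the group's 17 reads, lay near the lowest M-SCs library. The log2 difference for E-SCs against M-SCs was -2.84 (SE 0.90), with the widest error among the 8 members in that table. Its size rested on single E-SCs libraries, at -1.85 without replicate 3 and -3.82 without replicate 2. S100a9, its partner, was in none of the tables used here.

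Cd14 encodes the co-receptor that presents bacterial lipopolysaccharide to Toll-like receptor 4. Its scaled counts were 243, 187 and 174 for SCs, 173, 147 and 160 for E-SCs and 512, 631 and 567 for M-SCs. All M-SCs libraries were over 2 times the highest SCs library, and the highest E-SCs library was just below the lowest SCs library. The mean in M-SCs was 570 ± 59.5 (SD, n = 3), or 2.83 times that of SCs and 3.56 times that of E-SCs.

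Sod2 encodes the mitochondrial manganese superoxide dismutase, which converts superoxide to hydrogen peroxide. It was by far the most abundant member, with scaled counts of 1569, 1529 and 1826 for SCs, 1342, 1501 and 1310 for E-SCs and 9553, 8837 and 9293 for M-SCs. The libraries of a group were tightly spaced, the M-SCs libraries stood more than 4 times above the rest, and the E-SCs libraries lay slightly below those of SCs without overlap. The 5.62-fold ratio of M-SCs to SCs rests on 28961 reads against 5080. The ratio of M-SCs to E-SCs was 6.67 (interval of the reads per depth 6.45 to 6.90).

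**Figure D1:**
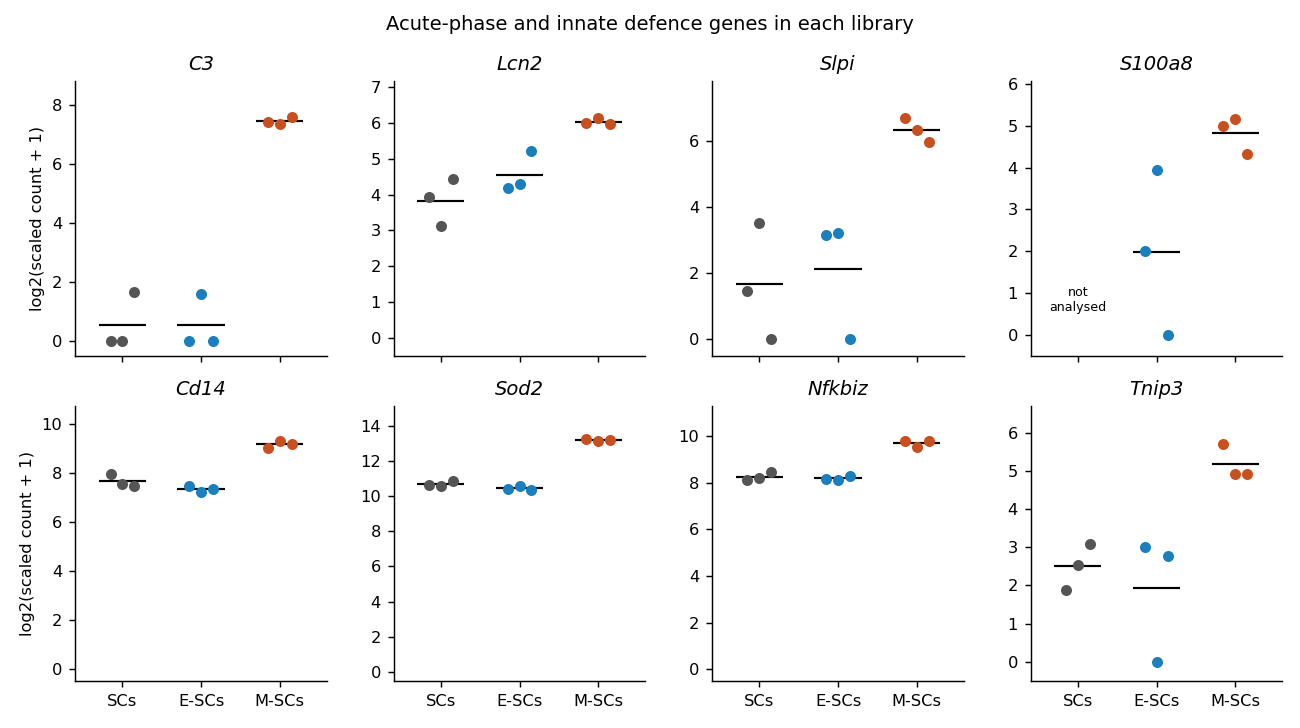
Level of each gene in each library, as log2 of the scaled count plus 1, with 1 point per library, a bar at the group's mean and a panel per gene; S100a8 has no SCs value here. In every panel the 3 M-SCs libraries lie above all other libraries, while SCs and E-SCs lie near each other.

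Nfkbiz and Tnip3 regulate the pathway itself. Nfkbiz encodes IkB-zeta, a nuclear IkB protein that is induced by Toll-like and interleukin receptors and is needed in mouse cells for part of the NF-kB response, Lcn2 included. Its scaled counts were 273, 297 and 354 for SCs, 290, 277 and 316 for E-SCs and 899, 744 and 872 for M-SCs. SCs and E-SCs were interleaved, and M-SCs stood apart at 839 ± 82.7 (SD, n = 3), 2.72 times the mean of SCs and 2.85 times that of E-SCs. It had the smallest log2 difference among the members for M-SCs against SCs, at 1.45 (SE 0.12).

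Tnip3 encodes a ubiquitin-binding partner of TNFAIP3 (A20), which restrains NF-kB signalling. The SCs libraries gave 3, 5 and 7 reads, the E-SCs libraries 7, 0 and 5, and the M-SCs libraries 55, 26 and 34. Few reads stand behind the first 2 groups, yet the lowest M-SCs library exceeded every one of them. The ratio of reads per depth was 7.62 for M-SCs over SCs (interval 4.43 to 14.1) and 8.69 over E-SCs (4.79 to 17.3).

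The size of the difference varied widely among the members. For M-SCs against SCs the log2 differences ran from 1.45 for Nfkbiz and 1.51 (SE 0.14) for Cd14, through 2.21 for Lcn2, 2.49 (SE 0.07) for Sod2 and 2.68 (SE 0.48) for Tnip3, to 4.68 (SE 0.80) for Slpi and 6.91 (SE 0.53) for C3. A log2 difference with 1 added to the value understates the change of rare genes, and the order of the members depended on the scale. On log2(FPKM + 1) the difference for M-SCs against SCs was largest for Sod2, at 2.45, and Slpi followed at 1.79. Cd14 at 1.29, Nfkbiz at 1.14 and Lcn2 at 1.13 then stood above C3 at 1.02 and Tnip3 at 0.27. For E-SCs against M-SCs, which share the M-SCs libraries with that comparison, the differences were -1.50 for Nfkbiz, -1.82 for Cd14, -2.74 for Sod2, -3.26 for Tnip3, -4.22 for Slpi and -6.92 for C3.

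All 7 members listed for M-SCs against SCs had a limma adjusted p under 0.05 and were higher in M-SCs, where 50.4% of all 405 listed genes were. Their libraries did not overlap in any case, against 49.9% of listed genes that were higher without overlap. By the same threshold all 8 members were lower in E-SCs, against 55.5% of 555 listed genes in that table, and none overlapped, against 55.0%. Because the members were chosen with these contrasts known, nothing is read from these counts. All listed genes were also selected for differing on these same libraries, which favours passing and makes the limma adjusted p too small. The same holds for the other listed genes below. The median log2 difference of the members was 2.49 for M-SCs against SCs, beside 1.13 over all listed genes, and -2.79 for E-SCs against M-SCs, beside -1.10. Each median over all listed genes mixes directions: 246 genes were higher and 159 lower in M-SCs, and 230 higher and 325 lower in E-SCs. A set in 1 direction therefore tends to lie further from 0 than such a median, and no excess is read from it. S100a8 was the member nearest to the threshold (limma adjusted p = 0.0177). Without E-SCs replicate 1 or M-SCs replicate 1, 2 or 3 it missed the threshold, with limma adjusted p from 0.0507 to 0.0789, and with a pseudocount of 0.1 it was 0.057.

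**Figure D2:**
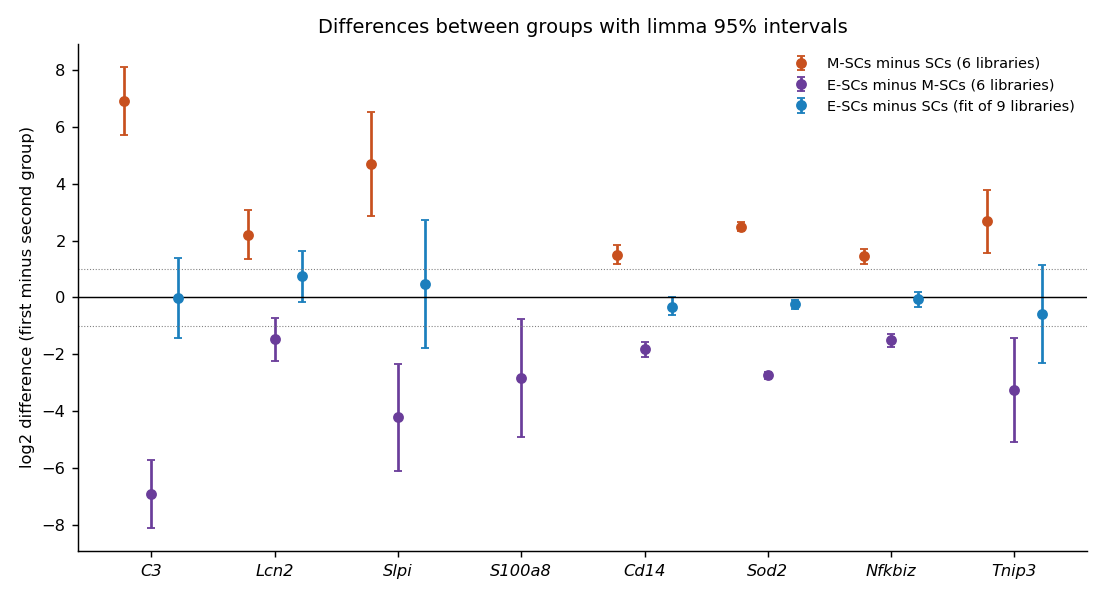
Log2 difference between groups for each gene, first named minus second, with 95% intervals from limma; dotted lines mark a 2-fold difference. M-SCs minus SCs lies above 1 and E-SCs minus M-SCs below -1 for every gene that has them, as the authors' selection required. The intervals of Lcn2 and S100a8 for E-SCs minus M-SCs cross -1. E-SCs minus SCs, for which no member was listed, lies between -0.58 and 0.74.

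The members were not listed for E-SCs against SCs, but 7 of them could be compared there through the other tables, in which shared libraries had identical values for the same gene. In a limma fit of all 9 libraries over the 316 genes with a value in each, their log2 differences for E-SCs against SCs ranged from -0.58 to 0.74 with a median of -0.06, beside a median of -0.02 over all 316 genes. All 7 were under 1 in size, as were 63.9% of the 316 genes. Listing for E-SCs against SCs needed a 2-fold difference and an authors' p under 0.05. As none of the 7 was listed there, small differences were favoured in advance. Some of the 316 genes were listed there, so the shares are not alike and nothing is read from them. The 7 members were also taken in through the other contrasts, which bears on this one.

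For the well expressed members the interval of this difference was narrow. Nfkbiz differed by -0.06 (95% interval -0.32 to 0.20), Cd14 by -0.32 (-0.63 to just under 0) and Sod2 by -0.24 (-0.41 to -0.08). A 2-fold difference lay outside the intervals of these 3 genes, which their not being listed for this comparison favoured. It did so for 31.3% of the 316 genes, some of which were listed for it. For the other members it did not: Lcn2 was at 0.74 (-0.17 to 1.65), Slpi at 0.46 (-1.78 to 2.71), Tnip3 at -0.58 (-2.29 to 1.14) and C3 at -0.01 (-1.43 to 1.40). C3, Slpi and Tnip3 had 2 to 16 reads in either group. Lcn2 rested on more (43 for SCs, 66 for E-SCs), and its limma interval spanned 0 although the counting interval of its read ratio did not; its libraries overlapped. Without E-SCs replicate 3 or SCs replicate 2 the Lcn2 difference was 0.41 or 0.38, and that of Slpi 1.53 or 1.39.

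In this fit 17.7% of the 316 genes were both past the threshold and lower in E-SCs. Sod2 was lower and the only member past the threshold (limma adjusted p = 0.0317). It missed the threshold without E-SCs replicate 1 or 3 or SCs replicate 3 (limma adjusted p from 0.0968 to 0.113) and with equal medians (0.069), with the replicate number as a block (0.0644) and on log2(FPKM + 1) (0.0967). In both Sod2 and Cd14 every E-SCs library lay below, and every M-SCs library above, every SCs library, which held for 11.1% of the 316 genes; E-SCs lay below SCs without overlap in 20.6% of them. For Cd14 the margin between the nearest E-SCs and SCs libraries was 173 against 174 scaled counts.

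Levels per transcript length were read from the FPKM values (fragments scaled to transcript length and library size). In M-SCs Sod2 led with 137 ± 5.90 FPKM (SD, n = 3), followed by Cd14 with 10.3 ± 1.04 and Nfkbiz with 6.34 ± 0.650. Slpi (2.94 ± 0.781), S100a8 (2.25 ± 0.648) and Lcn2 (2.20 ± 0.131) came next and overlapped as neighbours in this order. C3 at 1.04 ± 0.0988 and Tnip3 at 0.242 ± 0.0862 were lowest, each apart from its neighbour. C3 thus had the largest ratio to SCs and yet was the member with the second lowest level in M-SCs.

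In SCs and E-SCs the same 3 genes led, without overlap between neighbours. Sod2 was at 24.4 ± 2.45 FPKM in SCs and 20.7 ± 1.59 in E-SCs, Cd14 at 3.63 ± 0.662 and 2.91 ± 0.230, and Nfkbiz at 2.33 ± 0.319 and 2.24 ± 0.138. All neighbours below Lcn2 (0.477 ± 0.223 in SCs, 0.814 ± 0.341 in E-SCs) overlapped, down to C3 at 0.00419 and 0.00413 FPKM. The distance from the first to the second gene widened from 6.72 times in SCs and 7.11 times in E-SCs to 13.3 times in M-SCs.

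FPKM and scaled counts gave like ratios between groups for the abundant members. For M-SCs over SCs, Sod2 had 5.62 on both scales, Cd14 2.83 on both, and Nfkbiz 2.72 by scaled count and 2.73 by FPKM. The ratios of Tnip3 were 7.35 by scaled count and 8.86 by FPKM, and those of Slpi 20.2 and 21.6.

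Other genes of the same pathways were read from 4 lists. Of 48 further acute-phase and complement genes, M-SCs against SCs listed 3, each of them higher in M-SCs by limma (adjusted p under 0.05, against 50.4% of listed genes). Cp, which encodes the copper-carrying ferroxidase ceruloplasmin, had a scaled count of 3539 ± 184 in SCs, 2723 ± 127 in E-SCs and 8385 ± 254 in M-SCs (SD, n = 3). Orm1, an acute-phase plasma glycoprotein, was at 64.7 ± 17.0, 41.0 ± 21.2 and 204 ± 19.8. Ptx3, a secreted pattern-recognition pentraxin, was at 6.02 ± 3.97, 3.03 ± 3.0 and 30.7 ± 17.8. All 3 had their highest mean in M-SCs. Their means were lowest in E-SCs, but none of the 3 was listed for E-SCs against SCs. For Orm1 and Ptx3 the SD ranges of E-SCs and SCs overlapped, and no test of that difference is given here.

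For E-SCs against M-SCs, 5 of the 48 were listed and all 5 were lower in E-SCs by limma, against 55.5% of listed genes. Their median log2 difference was -1.62, near the lower quartile of all listed genes (-1.60), whose median of -1.10 mixes both directions. C1s, a protease of the classical complement pathway, stood at 2369 ± 28.4 in E-SCs, against 5751 ± 58.5 in M-SCs. Mt2A, a metal-binding metallothionein, stood at 26365 ± 1186 against 57577 ± 1080. In E-SCs against SCs the only listed gene of this list was A2m, a broad protease inhibitor of plasma and a major acute-phase protein of the rat, at 10.7 ± 10.8 against 31.8 ± 18.3; the difference of -1.66 in log2 (SE 0.80) was not past the threshold (limma adjusted p = 0.0861).

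Of 36 further pattern receptors and antimicrobial effectors, Nlrp3 was listed for M-SCs against SCs and Nlrp3 and Tlr2 for E-SCs against M-SCs. Nlrp3, the sensor of an inflammasome, had a scaled count of 12.2 ± 9.36 in SCs, 8.67 ± 4.47 in E-SCs and 35.3 ± 9.16 in M-SCs. Tlr2, a receptor for bacterial lipopeptides, stood at 34.3 ± 11.8 in E-SCs, against 92.6 ± 22.0 in M-SCs. Both passed limma's test as higher in M-SCs, in tables where 50.4% and 55.5% of listed genes did. Those tables hold only genes selected for differing on the same libraries, so passing was favoured in advance.

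Of 25 further NF-kB subunits and feedback genes, the comparison of M-SCs with SCs listed 4, all with a higher mean in M-SCs, and 3 passed limma's test, against 50.4% of listed genes. Zc3h12a, an endonuclease that degrades inflammatory mRNAs, was at 970 ± 40.7 in SCs, 782 ± 45.3 in E-SCs and 3057 ± 88.1 in M-SCs. Socs3, an inhibitor of cytokine receptor signalling, was at 1967 ± 88.9, 1547 ± 89.0 and 4052 ± 288, and Map3k8, a kinase upstream of ERK, at 17.5 ± 5.03, 22.3 ± 3.45 and 49.4 ± 16.8. Nfkbid, a nuclear IkB protein like Nfkbiz, differed by 1.01 in log2 (SE 0.45) and missed the threshold at a limma adjusted p of 0.0588.

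For E-SCs against M-SCs, 6 of these 25 genes were listed and all 6 were lower in E-SCs by limma, against 55.5% of listed genes. Their median log2 difference was -1.42, between the lower quartile (-1.60) and the median (-1.10) of all listed genes, which mix both directions. Nfkbia, which encodes the cytoplasmic inhibitor IkB-alpha, stood at 1765 ± 50.9 in E-SCs, against 4837 ± 367 in M-SCs. Bcl3, another nuclear IkB protein, stood at 215 ± 14.6 against 500 ± 41.4. No subunit of NF-kB itself was in the tables used here. Of 27 further genes that detoxify superoxide and peroxide, none was listed in any comparison, so Sod2 was the only listed gene of 28.

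**Figure D3:**
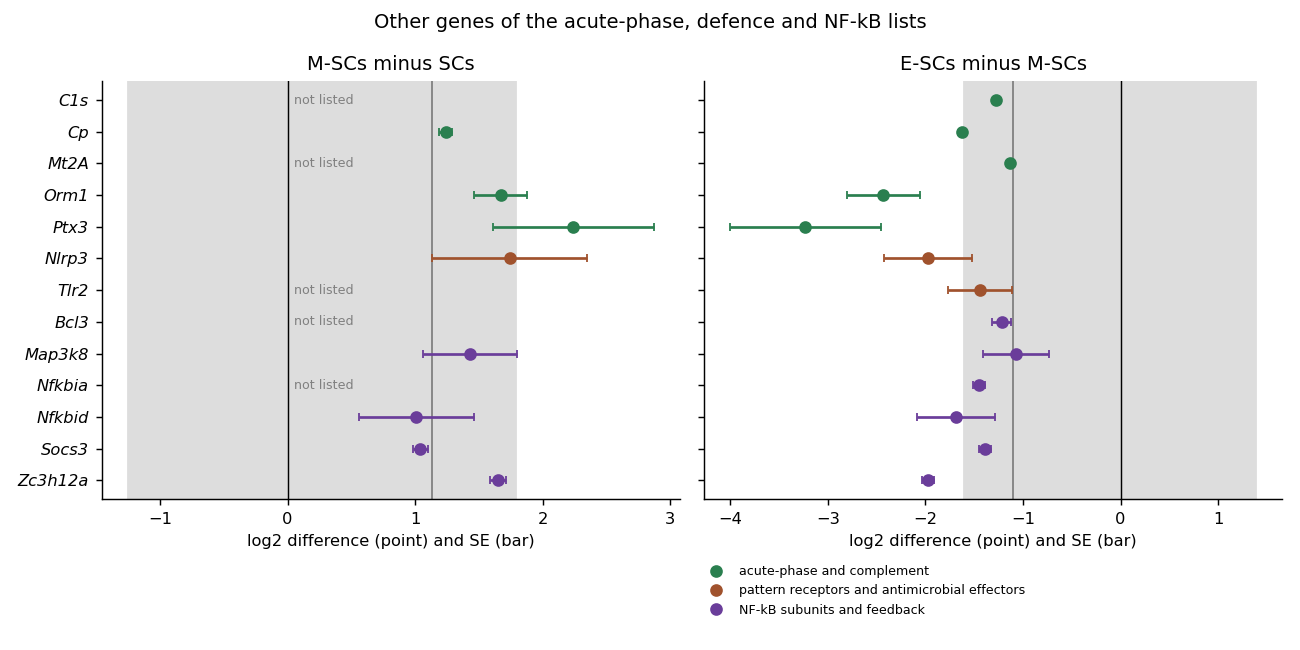
Log2 differences of the other listed genes of 3 pathway lists, for M-SCs minus SCs (left) and E-SCs minus M-SCs (right), with SE; the grey band spans the middle of all listed genes (lower to upper quartile) and the grey line is their median. Every gene shown lies above 0 on the left and below 0 on the right; Nfkbid did not pass limma's test on the left.

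The annotation deposited with the tables was shared by several members. The cellular component term extracellular space was given to 5 of the 8 (C3, Cd14, Lcn2, S100a8 and Slpi), beside 13.5% of the 555 genes listed for E-SCs against M-SCs. The term for extracellular vesicular exosome was given to these 5 and Sod2, or 6 of 8, beside 12.1% of listed genes. This term is about where the protein has been found and does not say where the RNA came from. Several secreted defence genes were chosen as members, which favours both terms, so nothing is read from these shares. Lcn2 and S100a8 carried the KEGG pathway for IL-17 signalling, of which 11 genes were listed for E-SCs against M-SCs, 10 of them with a lower mean in E-SCs, as were 325 of all 555 listed genes. Among the members, the KEGG pathways for NF-kB and Toll-like receptor signalling were given to Cd14 alone. That for complement and coagulation was given to C3 alone, and that for TNF signalling to no member.

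The members' profiles over the libraries were alike, which their choice favours. Over 9 libraries, Pearson's r of each member with the mean z score of the other 6 was 0.990 for Sod2, 0.988 for Nfkbiz, 0.970 for C3, 0.951 for Cd14, 0.832 for Tnip3, 0.825 for Lcn2 and 0.789 for Slpi. The 5 named genes most like the mean profile of the 7 members were Sox7 (r = 0.994), Cxcl6 (0.994), Aldh3a1 (0.994), Clca4l (0.994) and Tfrc (0.993). Cxcl6, which attracts neutrophils, was at 373 ± 21.2 in SCs, 355 ± 11.3 in E-SCs and 1725 ± 98.1 in M-SCs, and Tfrc, the transferrin receptor that takes up iron, 3331 ± 240, 3054 ± 93.3 and 7883 ± 295 (SD, n = 3). In the same order of groups, Sox7 was at 616 ± 25.7, 585 ± 12.1 and 1390 ± 52.6. Aldh3a1 was at 1844 ± 36.2, 1890 ± 39.9 and 5307 ± 165, and Clca4l at 388 ± 6.8, 386 ± 50.4 and 2519 ± 118. Of the 309 other genes with 9 libraries, 59 (19.1%) had an r above 0.9, and a step up in M-SCs alone is enough to give such a value.

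**Figure D4:**
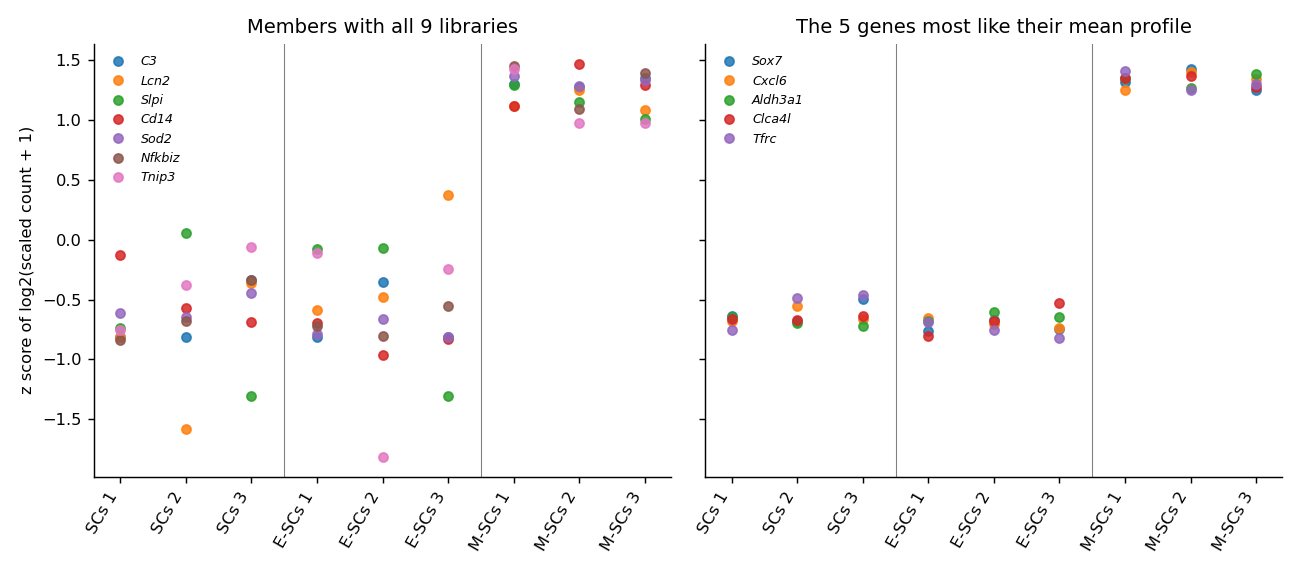
Profiles over the 9 libraries, as z scores of log2(scaled count + 1), of the 7 members with values in all of them (left) and of the 5 genes most like their mean (right), with 1 point per gene and library. On both sides the M-SCs libraries lie above the others for every gene, which the choice of these genes favours. Lcn2, Slpi and Tnip3 scatter most within SCs and E-SCs.

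Cd14 and S100a8 are also known as markers of myeloid cells. None of 15 macrophage and monocyte markers, of 10 neutrophil markers or of 8 fibroblast markers was listed in any table, so their levels were not analysed here and their part in the members' differences was not tested. Of the Schwann cell markers, Prx, a protein of the myelinating Schwann cell, was at 1000 ± 92.8 scaled counts in SCs, 951 ± 80.9 in E-SCs and 408 ± 43.2 in M-SCs (SD, n = 3). It was lower where the members were higher. Pmp22, a peripheral myelin protein, stood at 859 ± 37.7 in E-SCs, against 1746 ± 116 in M-SCs. The part of these markers in the members' differences was not tested.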

How the data were processed

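Poly(A)-selected RNA of RSC96 cells was sequenced paired-end, per the labels' protocols. HISAT2, StringTie and mm10 are named in the submitters' processing notes, without versions or roles. The deposited log2 values per library are, from the values, log2 of a scaled count plus 1, with the scaling not stated by the authors. All 4479 scaled counts checked (up to 1000 reads) fell on whole steps, within 0.01 reads, which gave reads and relative depth. FPKM was deposited by the authors in 2 of the 3 tables. The p-values and FDR deposited by the authors come from a test not named by any source used here.

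The members and lists were chosen with earlier results of these data known. limma 3.58.1 (R 4.3.3; eBayes with trend) was fitted to the deposited log2 values over each whole table, 6 libraries each, without a filter, with Benjamini-Hochberg adjustment at 0.05; it was also fitted to all 9 libraries over 316 genes. It was also run on simulated counts in which most genes were unchanged. These tables hold only genes selected for differing, so that run does not vouch for the adjusted p-values here. Named genes were the members, the listed genes of the pathway and marker lists, and the 5 genes with predicted names left out whose profiles were most like the members'. Python 3.11.15, pandas 2.3.3, scipy 1.17.1 and matplotlib 3.10.9 did the rest. Alternatives were a pseudocount of 0.1, a filter, equal medians, a replicate block, log2(FPKM + 1), the authors' FDR and leaving out each library.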

Additional observations from a re-analysis of the deposited data

How the results depend on the processing

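For M-SCs against SCs all 7 listed members stayed past the threshold in every alternative that tested them; under the filter (mean log2 value from 5 upwards) only 3 were tested, and all 3 passed. For E-SCs against M-SCs 7 or 8 passed, and 4 of 4 at that filter, which leaves out rare genes; S100a8 was the member that lost its call, and it was not tested with 9 libraries. Equal medians shifted the log2 differences by -0.50 (M-SCs minus SCs) and 0.46 (E-SCs minus M-SCs), without ending a member's call; those medians are of genes selected for differing. No member was listed for E-SCs against SCs, so the 6-library tests there held 0 members; with all 9 libraries 1 of 7 passed. That 1, Sod2, became 0 with equal medians, with the replicate block and on log2(FPKM + 1) over the 222 genes that have it in all 9 libraries, an alternative chosen after seeing the data, and 0 to 1 when a library was left out. In the same fit, uncalled differences turned in sign for C3 (0.02 with equal medians). With 1 library left out, the difference ran from 0.38 to 1.04 for Lcn2 and spanned 0 for C3 (-0.55 to 0.54), Slpi (-0.37 to 1.53), Nfkbiz (-0.14 to 0.05) and Tnip3 (-1.12 to 0.38); the cause was not tested. Of 244 alternatives for 22 results of single members, 224 kept direction and side of the threshold, 11 lost the call and 9 turned.

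With the replicate number as a block, 7, 8 and 0 members passed for M-SCs minus SCs, E-SCs minus M-SCs and, over 9 libraries, E-SCs minus SCs (Sod2 at limma adjusted p = 0.0644). The numbers are not known to pair the libraries: deviations of same-numbered libraries correlated from -0.33 to 0.20, and 1 of the 9 libraries correlated best with its own number in both other groups. Log2(FPKM + 1) was not run over the 6-library table of E-SCs against SCs, which holds no FPKM. Members with under 20 reads in a group limit the comparison of E-SCs with SCs.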
